A study of Homo sapiens with 30 samples.

Results

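The 38 HOX genes examined here lie in 4 clusters, and the data are the peaks of 2 histone marks in a fixed window around each cluster. On the hg19 build the windows were chr7:27125001-27250000 for HOXA (125 kb, 10 genes), chr17:46600001-46815000 for HOXB (215 kb, 10 genes), chr12:54325001-54455000 for HOXC (130 kb, 9 genes) and chr2:176945001-177060000 for HOXD (115 kb, 9 genes). Their bounds are genome positions and use no measured value, although the clusters were picked with earlier results of these data known. Across 30 SEACR lists they held 830 of 587932 peaks, and across 6 MACS2 lists 131 of 157073.

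All libraries were CUT&Tag libraries from 500000 cells of K562, an established human chronic myeloid leukaemia line that can be pushed toward red cell and megakaryocyte features. In CUT&Tag an antibody recruits a transposase, so that DNA next to the marked histone is tagged and sequenced. The 25 H3K27ac libraries used Abcam ab177178, Abcam ab4729, Active Motif 39133 (each at 1/100) or Diagenode C15410196 (at 1/50 or 1/100), and the 5 H3K27me3 libraries used Cell Signaling 9733 at 1/100. Libraries were made at 15 PCR cycles with SDS extraction of DNA (5 untreated H3K27ac, 4 H3K27ac with the deacetylase inhibitor trichostatin A, TSA, and 1 H3K27me3), or untreated at 11 or 13 cycles with SDS or column extraction (16 H3K27ac and 4 H3K27me3). Each condition had 1 library, so no value below has a replicate of the same condition, and tests use matched pairs of conditions. A p-value therefore measures the spread between antibodies and protocols, not between cultures. Per the labels, the reads at 11 and 13 cycles were cut to 1 common depth before peak calling. The read depth behind each list is unknown here, so no matched pair set a 15-cycle list against any of these downsampled lists. Both kinds of list were joined in the comparison of marks over protocols and in the overlap of marks. They were also joined in counts, medians and merged regions taken over all lists of a mark.

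HOX genes encode homeodomain transcription factors that give cells their position along the body axis, and they are used again in blood stem and progenitor cells. Within a cluster the genes lie in the order of their numbers, and group 13 genes lie at the 5′ end. H3K27me3 is laid down by Polycomb repressive complex 2 and covers silent HOX clusters as broad domains, whereas H3K27ac, an acetyl group on the same lysine, marks active promoters and enhancers. In order of rising coordinate the members run from HOXA2 to HOXA13, from HOXB1 to HOXB13, from HOXC13 to HOXC4 and from HOXD13 to HOXD1. No hg19 annotation was used here, so peaks are placed in a cluster and near its ends, and no peak is assigned to a single gene.

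Promoter letters could be read for some of the members. Of the 38 members, 20 had entries in the RefSeq promoter table (GRCh38.p14), with 27 entries in all. Below are the 250 bases before the start of an outermost member of each cluster, shown so that a stretch from each cluster can be read: HOXA13, HOXD13, HOXB1 and HOXC4. Each is read 5′ to 3′ on the gene's strand, and capitals mark every CG, the dinucleotide that is dense in CpG islands.
HOXA13: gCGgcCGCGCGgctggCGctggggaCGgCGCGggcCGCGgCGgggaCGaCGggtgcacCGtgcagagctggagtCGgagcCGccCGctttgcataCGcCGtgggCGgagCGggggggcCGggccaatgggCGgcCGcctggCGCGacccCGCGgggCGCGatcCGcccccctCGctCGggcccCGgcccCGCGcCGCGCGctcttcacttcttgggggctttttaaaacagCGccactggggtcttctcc
HOXD13: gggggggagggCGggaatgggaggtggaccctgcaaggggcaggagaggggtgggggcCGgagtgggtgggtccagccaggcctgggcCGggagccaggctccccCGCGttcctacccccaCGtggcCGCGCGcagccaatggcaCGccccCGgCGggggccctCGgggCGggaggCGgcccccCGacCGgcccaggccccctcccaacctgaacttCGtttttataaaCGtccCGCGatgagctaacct
HOXB1: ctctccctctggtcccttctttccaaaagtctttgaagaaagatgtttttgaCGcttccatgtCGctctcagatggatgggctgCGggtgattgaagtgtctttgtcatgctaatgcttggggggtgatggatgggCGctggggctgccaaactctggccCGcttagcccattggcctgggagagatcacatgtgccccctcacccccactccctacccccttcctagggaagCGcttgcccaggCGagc
HOXC4: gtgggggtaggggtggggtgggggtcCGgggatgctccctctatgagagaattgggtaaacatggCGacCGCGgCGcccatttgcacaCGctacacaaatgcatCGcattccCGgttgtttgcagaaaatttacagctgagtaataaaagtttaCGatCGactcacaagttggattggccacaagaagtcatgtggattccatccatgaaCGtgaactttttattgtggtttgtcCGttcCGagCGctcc
HOXA13 has the most CG of the 27 entries, and HOXB has 1 entry, so these 4 do not stand for their clusters: HOXA2, at the other end of HOXA, held 8 CG at 47.2% G+C. The HOXA13 stretch held 40 CG at 78.0% G+C, and the HOXD13 stretch 21 CG at 74.0%. HOXB1 held 7 CG at 57.2%, and HOXC4 held 14 CG at 50.8%. Over the 27 entries of members the median was 19 CG, with 19 entries above the median of 11 CG over all 35116 promoters in the table. Several entries belong to 1 gene (HOXA3) or share letters (HOXC4 and HOXC5), so they are not independent. These letters come from another build than the peaks and say nothing about where a peak lies.

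H3K27me3 covered much of HOXD and HOXA, part of HOXC and little of HOXB. At 15 cycles, SEACR peaks covered 75.9% of HOXD (27 peaks), 68.0% of HOXA (42 peaks), 42.1% of HOXC (25 peaks) and 12.7% of HOXB (17 peaks). The same list covered 4.91% of the genome, so the HOXD share was 15.5 times, the HOXA share 13.8 times, the HOXC share 8.57 times and the HOXB share 2.59 times the genome-wide share. Cut into 5 kb bins, 55 of the 117 HOX bins had at least 50% of their length under H3K27me3, where 3.84% of all genome bins did. By cluster these were 20 of 23 bins in HOXD, 18 of 25 in HOXA, 12 of 26 in HOXC and 5 of 43 in HOXB.

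The order of the clusters was the same in the 4 downsampled H3K27me3 libraries. HOXD was covered to 46.2% with SDS at 11 cycles, 50.4% with columns at 11 cycles, 53.4% with SDS at 13 cycles and 53.5% with columns at 13 cycles. In the same order HOXA was covered to 29.5%, 42.2%, 48.0% and 44.5%. HOXC was covered to 17.1%, 24.5%, 22.6% and 23.3%. HOXB was covered to 3.27%, 4.93%, 6.01% and 5.67%. In each of the 5 libraries HOXD stood above HOXA, HOXA above HOXC and HOXC above HOXB, with no test because each library is its own condition.

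HOXD also held more of the H3K27me3 that recurred from library to library than any other HOX cluster. In 15 of the 117 HOX bins all 5 H3K27me3 lists covered at least 50%, against 0.264% of genome bins, and 10 of the 15 were in HOXD, with 3 in HOXA, 1 in HOXB and 1 in HOXC. At 1 kb resolution, all 5 lists covered 36 of 115 bins in HOXD, 20 of 125 in HOXA, 13 of 130 in HOXC and 2 of 215 in HOXB. No genome-wide share was computed for 1 kb bins, so these counts compare the clusters only with each other. The strongest HOXD peak ranked at the 99.6 percentile of total signal in the 15-cycle list and between the 99.8 and 99.9 percentiles in the downsampled lists. At 15 cycles it lay at chr2:177022802-177030947. At 15 cycles the strongest HOXC peak also ranked at the 99.6 percentile, and the strongest HOXA peak at the 99.0 percentile. In each downsampled list both ranked below HOXD. The strongest HOXB peak of each list ranked lower, from the 93.7 to the 97.8 percentile. The column library at 11 cycles stood somewhat apart genome-wide, with 5.95% of its covered length inside the H3K27ac peaks of the 15-cycle lists, against 2.76% to 4.69% in the other 4. Without it the count of recurrent HOX bins was again 15, where 0.292% of genome bins passed.

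**Figure D1:**
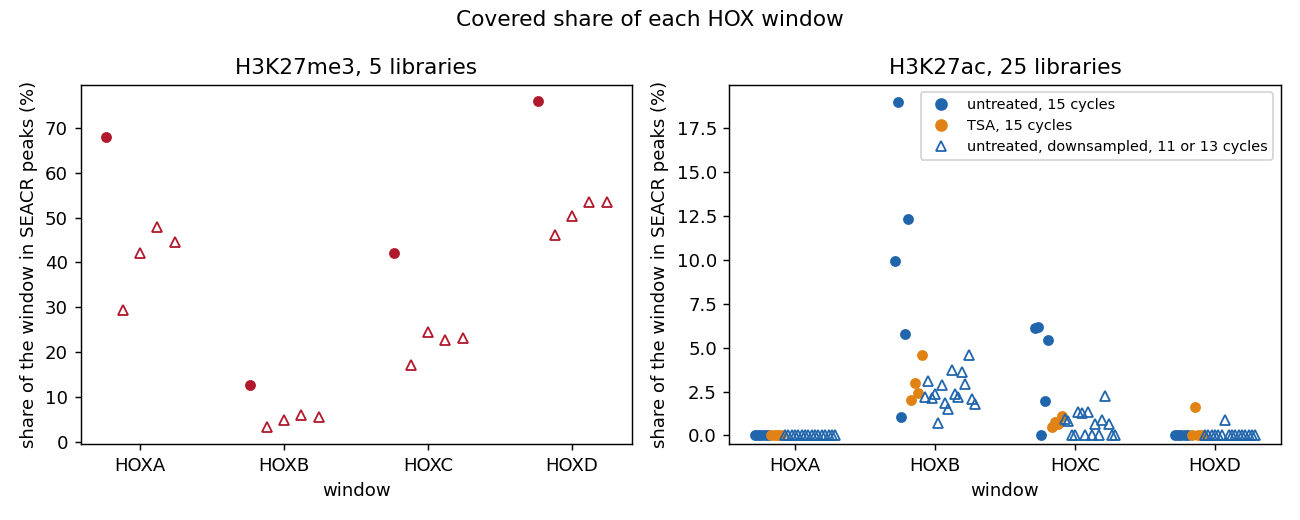
Share of each HOX window (percent, y axis) covered by SEACR peaks, 1 point per library, for H3K27me3 (left) and H3K27ac (right); filled circles are 15-cycle libraries, open triangles downsampled libraries at 11 or 13 cycles, and orange points libraries with TSA. H3K27me3 reaches 75.9% in HOXD and 12.7% in HOXB at 15 cycles, while H3K27ac reaches 19.0% in HOXB and stays at 0 in HOXA.

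The H3K27me3 domains ran past the window edges and were broken at a few places. Joining 15-cycle peaks less than 5 kb apart, 1 domain of 149.6 kb spanned the whole HOXD window (chr2:176925615-177075192). HOXA fell into 2 domains, and the longer, of 123.5 kb, reached from inside the cluster to beyond the HOXA13 end (chr7:27173294-27296827). The longest stretch without H3K27me3 was 5.84 kb in HOXA and 4.2 kb in HOXD. Downsampled lists gave shorter domains, from 25.3 kb to 123.8 kb in HOXD, and narrower peaks, with a median width in HOXD of 848 to 1115 bp against 2476 bp at 15 cycles.

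HOXC was split by H3K27me3 on both sides of a free middle. The 15-cycle list had no H3K27me3 peak over 55.1 kb (chr12:54377521-54432585), 42.4% of the window. On the HOXC13 side of that stretch 73.9% of 52.5 kb was covered, and on the HOXC4 side 71.2% of 22.4 kb. Those shares leave out the free stretch, whereas the whole-window shares of HOXA (68.0%) and HOXD (75.9%) include theirs. Cut at its own longest free stretch in this list, HOXA was covered to 67.0% on the low-coordinate side and 73.7% on the other. For HOXD these shares were 80.6% and 57.7%. In the downsampled lists the HOXC4 side was covered to 21.3% to 31.3%, below the whole-window HOXA and HOXD shares of the same list. The edges moved by some kilobases between libraries: the free stretch began between 54373671 and 54386441, and ended between 54425476 and 54440671. The 39.0 kb at chr12:54386441-54425476 held no H3K27me3 peak in any of the 5 lists.

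HOXB was free of H3K27me3 from its HOXB1 end over most of the window. The 15-cycle list had no peak for 152.2 kb (chr17:46600001-46752197), which is 70.8% of the window. The remaining 62.8 kb at the HOXB13 end were covered to 43.5%, and the longest domain there (chr17:46779307-46840427, 61.1 kb) continued beyond the window. The downsampled lists put 11.2% to 19.6% of that end under H3K27me3. Of these 4 lists, the 1 from SDS at 13 cycles had a peak in the free stretch, of 0.647 kb. Because of that peak, the stretch free in all 5 lists was 107.6 kb long (chr17:46644621-46752197).

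**Figure D2:**
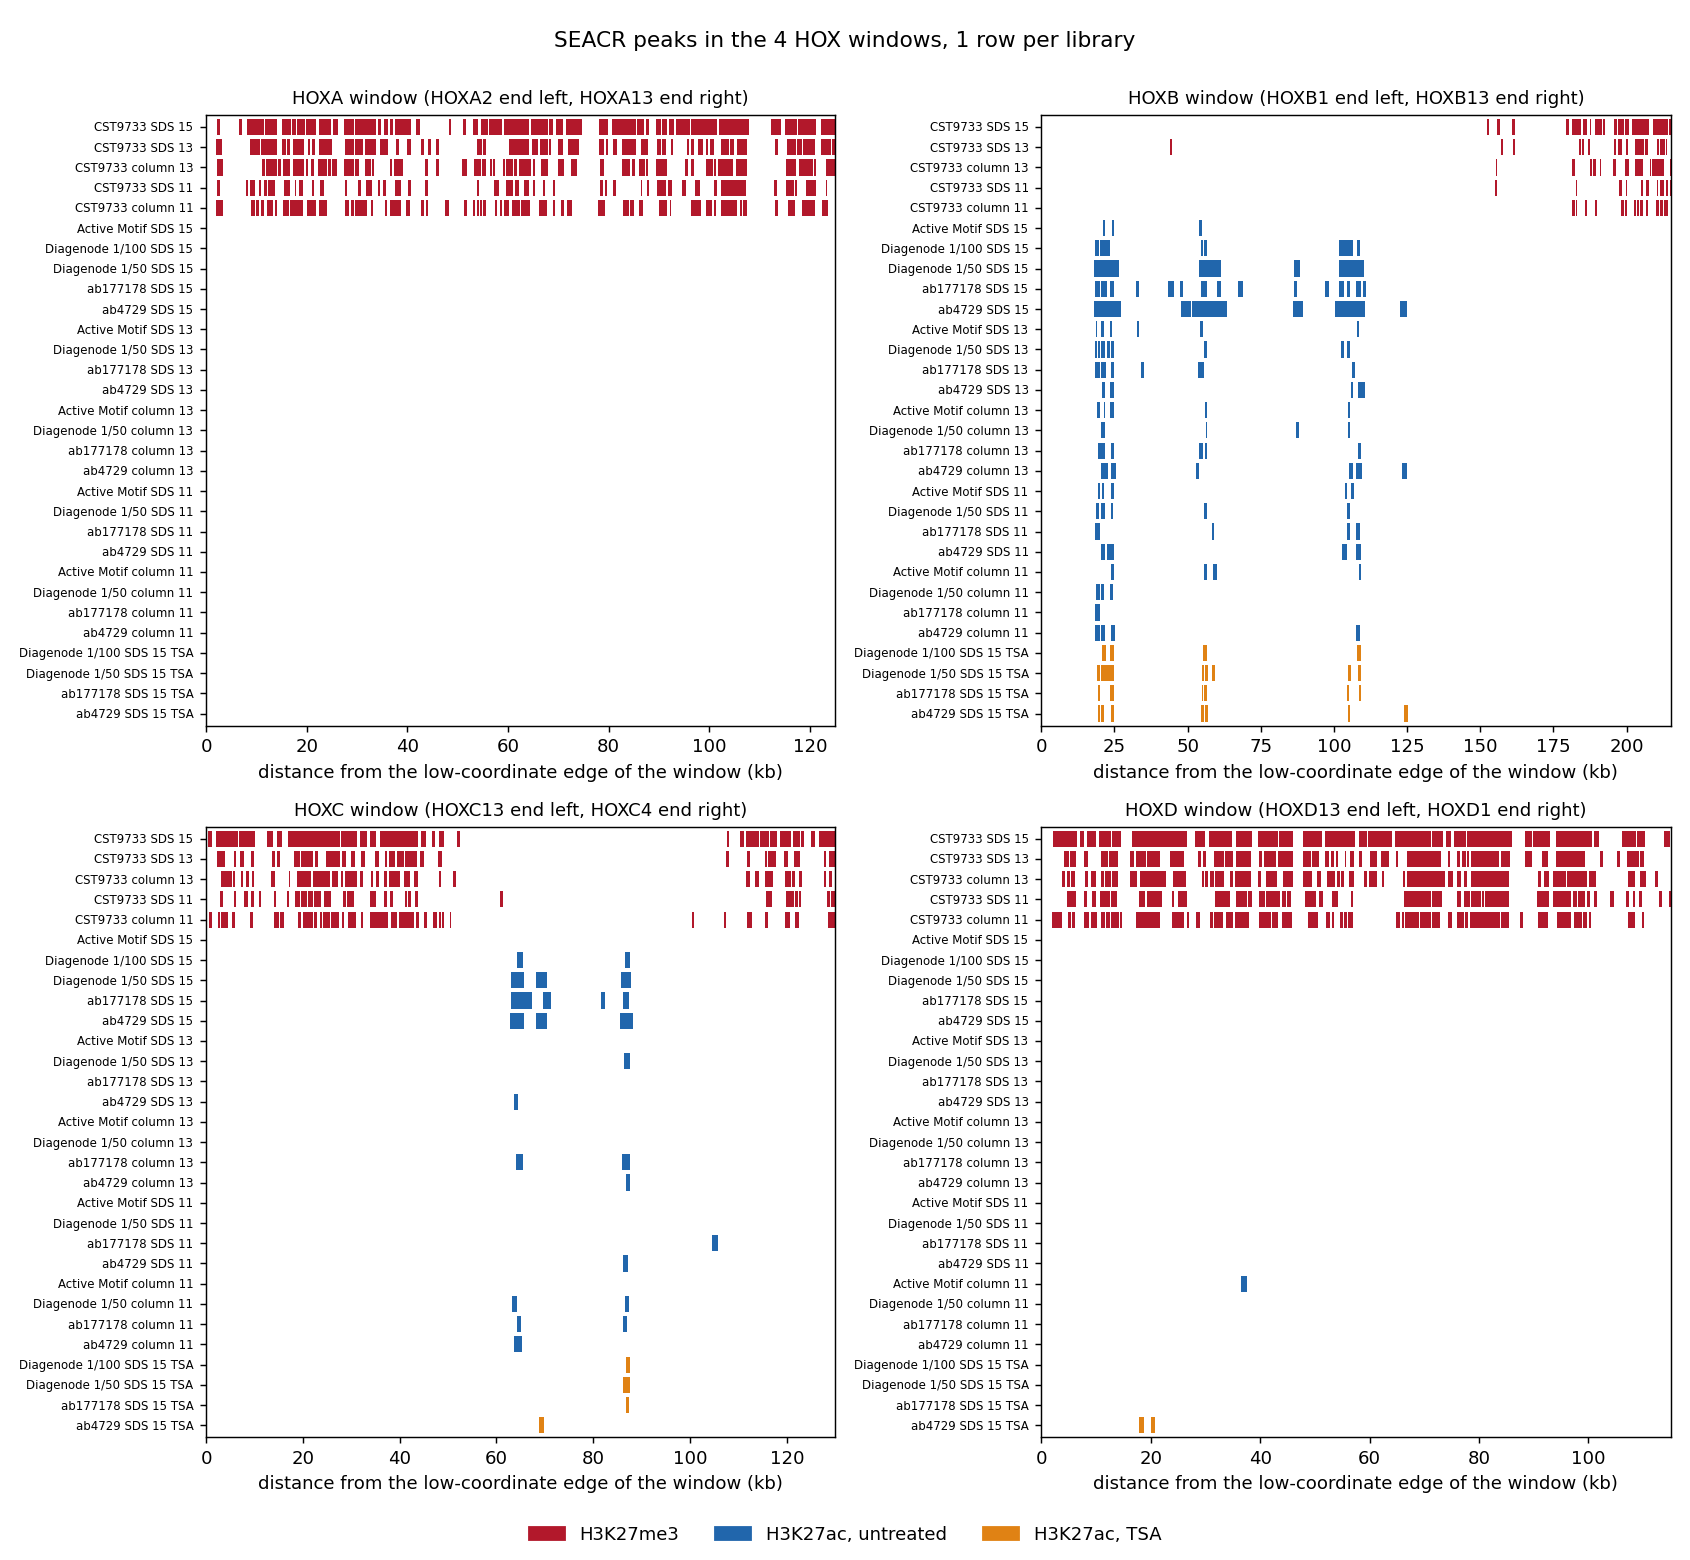
SEACR peaks in the HOX windows, 1 row per library; the x axis is distance in kb from the low-coordinate edge, red is H3K27me3, blue untreated H3K27ac and orange H3K27ac with TSA. Red fills HOXA and HOXD, and blue and orange fall in the red-free parts of HOXB (152.2 kb) and HOXC (55.1 kb), apart from 3 peaks in HOXD.

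H3K27ac was found in HOXB in every library, in HOXC in most, in HOXD in 2 and in HOXA in none. In HOXB all 25 lists had a peak, covering from 0.720% to 19.0% of the window (median 2.43%), which was 2.52 to 20.9 times the genome-wide share of the same list. In HOXC 17 of 25 lists had a peak, covering up to 6.17% (median 0.794%). No list had a peak in HOXA. Taking the 5 untreated 15-cycle lists together, 11 of the 117 HOX bins were covered to at least 50%, against 1.47% of genome bins, and 9 of these were in HOXB and 2 in HOXC.

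The absence of H3K27ac from HOXA and HOXD is close to what most of the genome shows. All 25 bins of HOXA and 20 of the 23 bins of HOXD (87.0%) had no H3K27ac peak in any of the 25 lists, but so did 92.9% of genome bins. HOXC was free in 19 of 26 bins and HOXB in 25 of 43 (58.1%), which is below the genome-wide share. By this measure HOXA and HOXD were near the genome background, and HOXB and HOXC held more H3K27ac than the background.

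At 15 cycles without TSA the antibodies differed widely in how much of HOXB they marked. The list of ab4729 covered 19.0% of HOXB and 6.17% of HOXC. The Diagenode antibody covered 12.3% of HOXB and 5.44% of HOXC at 1/50, and 5.76% and 1.94% at 1/100. The list of ab177178 covered 9.92% and 6.10%. The Active Motif antibody covered 1.08% of HOXB and had no peak in HOXC. The lists also differed genome-wide, from 0.104% of the genome for Active Motif to 1.43% for ab4729. Set against its own genome-wide share, HOXB was covered 10.4 times as much with Active Motif, 11.0 times with ab177178, 11.7 times with Diagenode at 1/50, 13.3 times with ab4729 and 14.6 times with Diagenode at 1/100. The order of antibodies in HOXB was thus not the order relative to the genome. In the downsampled lists, across antibodies and protocols, the shares of HOXB were closer, between 0.720% and 4.60%. The lowest was ab177178 (columns, 11 cycles) and the highest ab4729 (columns, 13 cycles). Relative to each list's genome-wide share they were further apart than at 15 cycles, from 2.52 to 20.9 times.

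Peak shape differed too. The 40.9 kb that ab4729 covered in HOXB lay in 6 peaks with a median width of 6305 bp, and Diagenode at 1/50 had 4 peaks with a median width of 7893 bp. The list of ab177178 divided 21.3 kb among 15 peaks with a median width of 1411 bp. The longest H3K27ac peak in the HOX windows, 11981 bp, was an ab4729 peak at chr17:46651530-46663510.

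Merging the peaks of all 25 H3K27ac lists gave 11 separate regions in HOXB, 5 in HOXC and 3 in HOXD, and 3 regions in HOXB were found by every antibody. The region nearest the HOXB1 end, chr17:46618011-46627143, was in 25 of 25 lists. The region at chr17:46700490-46710906 was in 22 lists, and the region at chr17:46651530-46663510 in 19. All 4 TSA lists had each of these 3 regions. A list counts here if it shares 1 bp with the merged region, so lists can mark different parts of it. In the region of 22 lists, the 1 kb bin covered by most untreated lists (chr17:46708001-46709000) held 11 of 21, and 2 of 4 TSA lists. In the region of 19 lists that bin (chr17:46656001-46657000) held 10 of 21 untreated lists and 4 of 4 TSA lists. Among the 16 downsampled lists the 3 regions were found in 16, 14 and 10 respectively. The region at chr17:46685887-46689362 was in 4 untreated lists and no TSA list, and the region at chr17:46647571-46651214 in 2 untreated lists. The remaining HOXB regions were in at most 3 lists, and 4 of them were found only with ab177178, none of those in more than 1 list.

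Within the region at the HOXB1 end 4 bins of 1 kb were covered by at least 1 list of every antibody, with counts that varied. In the 4 downsampled lists of each antibody, at least 50% of the bin chr17:46618001-46619000 was covered in 3 lists of ab177178, 1 of ab4729, 1 of Diagenode and none of Active Motif. The bin chr17:46619001-46620000 was covered in 4 lists of ab177178, 3 of Diagenode, 2 of Active Motif and 1 of ab4729. In the bin chr17:46620001-46621000 the counts were 4 for Diagenode, 2 for ab177178, 2 for ab4729 and 1 for Active Motif. In the bin chr17:46621001-46622000 the counts were 4 for ab4729, 4 for Diagenode, 2 for ab177178 and 1 for Active Motif. In the bin chr17:46624001-46625000 they were 4 for ab4729, 3 for Active Motif, 2 for ab177178 and 2 for Diagenode. These counts of 4 lists are descriptions, and differences between antibodies were not tested.

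HOXC had 2 recurrent H3K27ac regions, and Active Motif found neither. The region at chr12:54410501-54413264, nearer the HOXC4 end, was in 13 lists: 4 of 5 untreated 15-cycle lists, 3 of 4 TSA lists and 6 of 16 downsampled lists. The region at chr12:54387856-54392304 was in 9 lists: 4 of 5 untreated 15-cycle lists, no TSA list and 5 of 16 downsampled lists. A neighbouring region at chr12:54393126-54396275 was in 3 untreated 15-cycle lists and in 1 TSA list. None of the 4 downsampled Active Motif lists had a peak in HOXC.

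Set against the 15-cycle H3K27me3 list, H3K27ac and H3K27me3 occupied separate parts of HOXB and HOXC. All 25 H3K27ac lists together covered 48.3 kb of HOXB and 12.4 kb of HOXC, and all of it lay within the H3K27me3-free stretches of the 15-cycle list, with 0 kb shared. Genome-wide, only 2.76% of the length of that H3K27me3 list lay inside the H3K27ac peaks of the 15-cycle lists. Little sharing is therefore not particular to HOXB and HOXC. In HOXB the last H3K27ac peak ended 26.9 kb before the first H3K27me3 peak of the 15-cycle list. In HOXC the first H3K27ac peak began 10.3 kb after the last H3K27me3 peak of that list on the HOXC13 side. On the HOXC4 side the gap was 19.3 kb for the 5 untreated 15-cycle lists. It shrank to 1.81 kb with all 25 lists, through 1 peak of ab177178 (SDS, 11 cycles) at chr12:54429581-54430777. Downsampled H3K27me3 lists came nearer. On the HOXC13 side the SDS list at 11 cycles had H3K27me3 until just before chr12:54386441, and the first H3K27ac peak began at chr12:54387856. On the HOXC4 side the column list at 11 cycles had an H3K27me3 peak just after chr12:54425476, so the ab177178 peak lay beyond it. Across the 5 H3K27me3 lists the only stretch of HOXB and HOXC shared with H3K27ac was 0.647 kb in HOXB, where the peak of the SDS list at 13 cycles lay inside the region chr17:46643408-46645246, found only by ab177178 at 15 cycles. The H3K27me3 column library at 11 cycles shared 0 kb with H3K27ac in HOXB and HOXC.

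HOXD held the exceptions. The TSA list of ab4729 had peaks at chr2:176962872-176963809 and chr2:176964980-176965877, and the untreated Active Motif list from columns at 11 cycles had a peak at chr2:176981579-176982572. All 3 lay wholly within H3K27me3 of the 15-cycle list, and each overlapped a peak in 5 of 5 H3K27me3 lists. They were weak in their own lists, at the 35.8, 19.0 and 22.7 percentiles of total signal, with a maximum of 5, 3 and 4 signal units, and none recurred in another list. The matched untreated ab4729 list had no peak in HOXD.

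**Figure D3:**
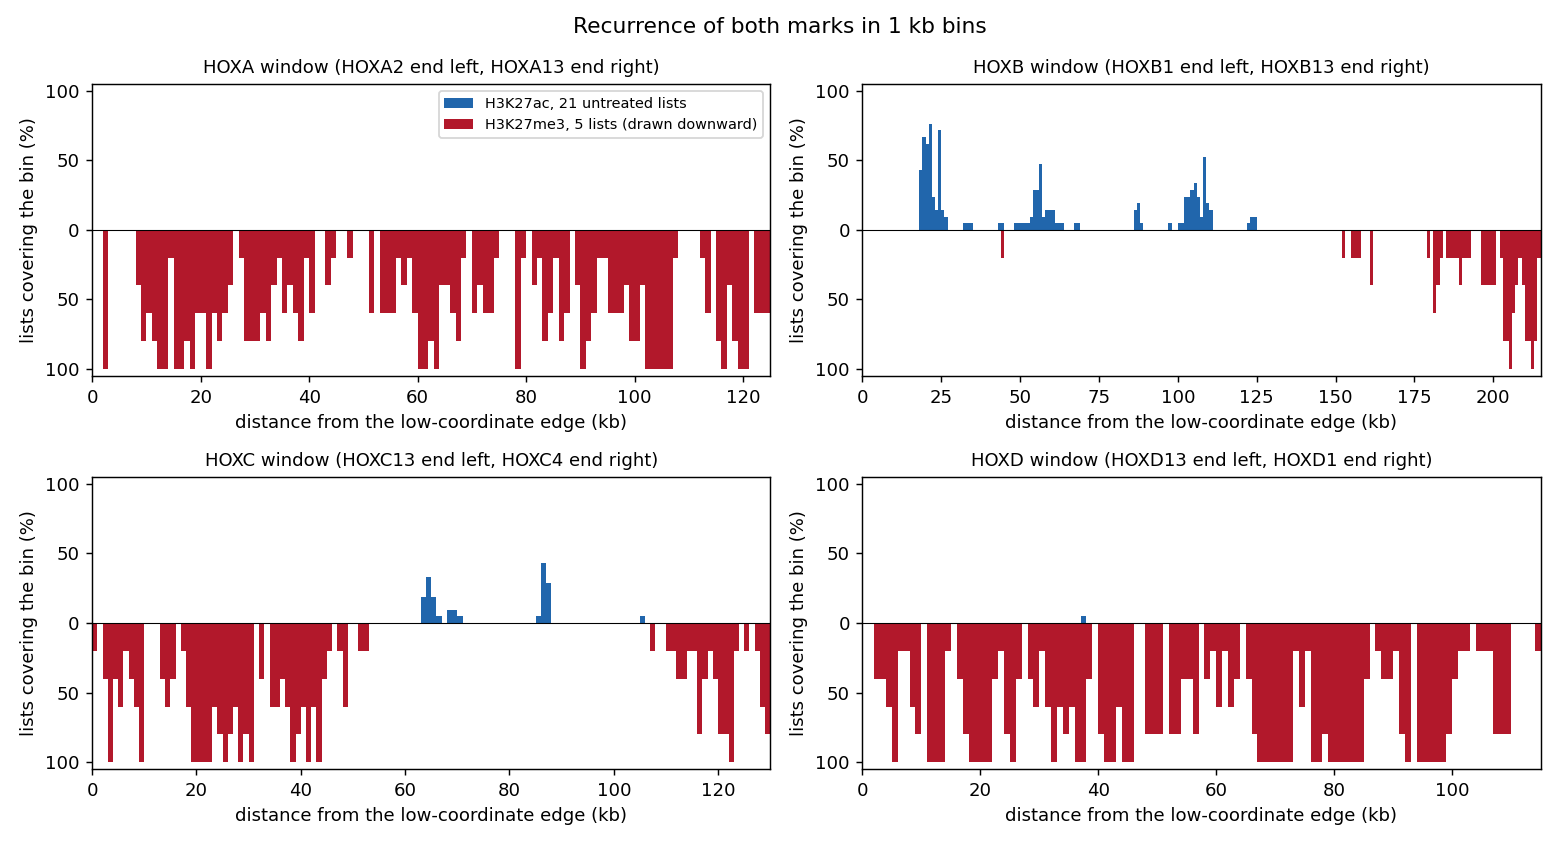
Share of lists (percent) covering at least 50% of each 1 kb bin, with untreated H3K27ac (21 lists) drawn upward in blue and H3K27me3 (5 lists) drawn downward in red, against distance in kb from the low-coordinate edge of each window. The tallest H3K27ac bin is in HOXB (16 of 21 lists), and in HOXC the tallest holds 9 of 21.

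For the windows as a whole, H3K27me3 covered more than H3K27ac in each of the 5 protocols for which both marks were available. The H3K27me3 share minus the mean share of the untreated H3K27ac lists of the same protocol was 27.3 ± 7.19 percentage points (SD, n = 5 protocols; exact two-sided sign-flip test, p = 0.063, the smallest this design allows). By cluster the difference was 55.8 ± 11.6 points in HOXD, 46.4 ± 13.9 in HOXA, 24.6 ± 8.04 in HOXC and 2.6 ± 0.994 in HOXB, positive in 5 of 5 protocols in each. In HOXB at 15 cycles 12.7% was covered by H3K27me3 and a mean of 9.62% by H3K27ac, and the ab4729 list alone covered more (19.0%) than H3K27me3. The H3K27me3 lists also cover more of the genome. Relative to each list's genome-wide share, the log2 difference over all windows was 1.47 ± 0.54 in favour of H3K27me3 (5 of 5 protocols), but in HOXB it turned to -1.99 ± 0.55, H3K27me3 being lower in 5 of 5 (SD, n = 5; exact two-sided sign-flip test, p = 0.063 for each). With lists of equal size the HOXB difference was -1.21 points, and with windows narrowed by 10 kb it was 0.0191 points (exact p = 1), so the direction in HOXB depends on the scale.

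TSA was set against untreated libraries at 15 cycles to ask whether blocking deacetylases changes H3K27ac recovery. In HOXB the ab4729 share was 19.0% untreated and 2.96% with TSA. The ab177178 share was 9.92% and 2.02%. The Diagenode antibody covered 12.3% untreated and 4.56% with TSA at 1/50, and 5.76% and 2.43% at 1/100. The TSA list was lower in each of the 4 pairs. In HOXC the ab4729 share was 6.17% untreated and 0.794% with TSA, and the ab177178 share 6.10% and 0.486%. Diagenode covered 5.44% and 1.10% of HOXC at 1/50, and 1.94% and 0.650% at 1/100. Each pair was again lower with TSA, and in both clusters the untreated shares of these pairs did not overlap the TSA shares. How often other parts of the genome show this was not computed. Relative to each list's genome-wide share the HOXB values did overlap, at 11.0 to 14.6 times untreated and 3.56 to 17.0 times with TSA. The HOXC values did not, at 4.33 to 6.74 times untreated and 0.952 to 4.11 times with TSA. Over all windows the mean was 5.41% untreated and 1.35% with TSA, a difference of -4.06 ± 2.16 percentage points (SD, n = 4 pairs; exact two-sided sign-flip test, p = 0.13, the smallest 4 pairs can give, and 0.270 after Benjamini-Hochberg adjustment over 3 such tests). Adjusted over the single-window tests, the exact p was 0.375 in both HOXB (-8.76 ± 5.30 points, n = 4) and HOXC (-4.15 ± 1.99 points, n = 4). This design could not reach 0.05 for TSA. The number of HOXB peaks split the pairs: it was 15 untreated and 6 with TSA for ab177178, and 6 and 4 for Diagenode 1/100, but 6 and 7 for ab4729 and 4 and 8 for Diagenode 1/50. Peaks per 100 kb over all windows differed by -0.513 (n = 4, exact p = 0.625).

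The lower HOX shares with TSA came with lower covered shares genome-wide. On the log2 scale the ratio of TSA to untreated over all HOX windows was -2.40 with ab4729, -2.55 with ab177178, -1.58 with Diagenode 1/50 and -1.30 with Diagenode 1/100. The genome-wide ratios in that order were -0.77, -2.12, -1.97 and -1.05. The HOX value minus the genome value was -1.63, -0.44, 0.39 and -0.25, lower for HOX in 3 of 4 pairs. The mean of these differences was -0.48 (exact two-sided sign-flip test over n = 4 pairs, p = 0.375). With lists of equal size the mean TSA difference over all windows was -3.38 percentage points, against -4.06 with the full lists. In HOXB it was -7.41 against -8.76 points, and in HOXC -2.97 against -4.15 points. The part that the lower genome-wide covered share plays was not tested beyond this.

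Extraction by column or SDS gave similar HOX totals for H3K27ac. Over all windows the column lists covered a mean of 1.05% and the SDS lists 1.08%, a difference of -0.0304 ± 0.486 percentage points (SD, n = 8 pairs of antibody and cycle number; exact two-sided sign-flip test, p = 0.867, adjusted p = 0.867). Columns were higher in 4 of 8 pairs. In HOXB columns were lower in 7 of 8 pairs (mean 2.29% against 2.70%), and the exception was ab4729 at 13 cycles, with 4.60% for the column and 2.37% for SDS. The HOXB difference was -0.413 ± 1.23 points (n = 8, exact p = 0.352, adjusted p = 0.633), and it moved with the antibodies included. It was -0.885 points without ab4729 (exact p = 0.03125, not adjusted), -0.172 without ab177178 (exact p = 0.688) and -0.113 without Diagenode (exact p = 0.781). With the antibody as the unit (n = 4) the exact p was 0.375. Relative to the genome-wide share of each list, the HOX share over all windows was lower with columns in 4 of 4 pairs at 11 cycles (mean log2 difference -0.64) and higher in 4 of 4 at 13 cycles (mean 0.42). In HOXC the mean was 0.859% with columns and 0.408% with SDS (n = 8, exact p = 0.250, adjusted p = 0.563), columns being higher in 4 pairs, lower in 2 and equal in 2.

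Going from 11 to 13 PCR cycles did not shift the HOX total beyond the spread between pairs. The mean share was 0.945% at 11 cycles and 1.19% at 13, a difference of 0.246 ± 0.463 points (SD, n = 8; exact two-sided sign-flip test, p = 0.180, adjusted p = 0.270). In HOXB 13 cycles were higher in 7 of 8 pairs, with means of 2.90% and 2.08% and a difference of 0.821 ± 1.01 points (n = 8, exact p = 0.0703, adjusted p = 0.375). The HOXB difference leaned on single antibodies: it was 0.919 points without ab4729 (exact p = 0.03125, not adjusted), whose SDS pair went the other way, and 0.467 points without ab177178 (exact p = 0.281). Without ab177178 the difference over all windows was 0.0969 points (exact p = 0.563). With the antibody as the unit (n = 4) the HOXB exact p was 0.13, the smallest possible, and counted as peaks per 100 kb the HOXB difference was 0.930 (exact p = 0.0156, not adjusted). In HOXC 13 cycles were higher in 2 pairs, lower in 4 and equal in 2.

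**Figure D4:**
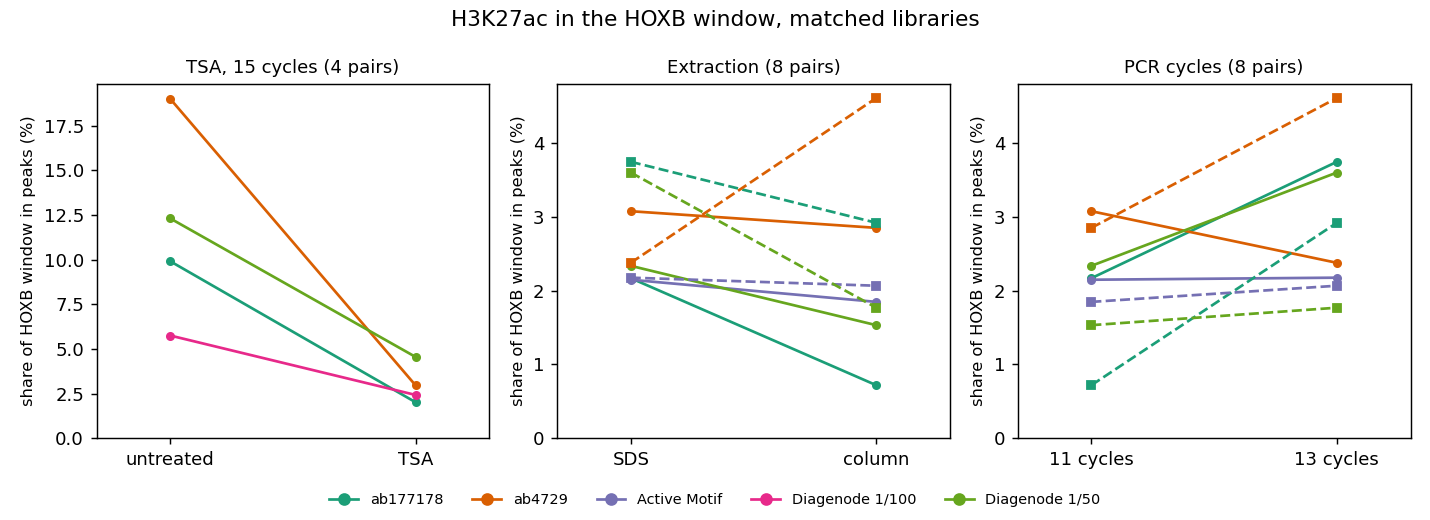
Share of the HOXB window (percent) in H3K27ac peaks in matched libraries, 1 line per pair, coloured by antibody, for TSA (left), extraction (middle; solid lines 11 cycles, dashed 13) and PCR cycles (right; solid lines SDS, dashed column). All 4 TSA lines go down, 7 of 8 extraction lines go down from SDS to column, and 7 of 8 cycle lines go up.

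Among the downsampled H3K27me3 libraries, SDS extraction at 11 cycles gave the lowest HOX coverage. At 11 cycles the column list covered 26.2% of all windows and the SDS list 20.4%, whereas at 13 cycles the shares were 27.3% and 28.0%. HOXA had the largest gap between extractions at 11 cycles, with 42.2% for the column and 29.5% for SDS, and the 13-cycle SDS library covered 48.0% of it. The SDS list at 11 cycles was also the smallest genome-wide, covering 1.53% of the genome against 1.80% to 2.08% in the other downsampled lists, and relative to that share its HOX windows were covered 13.3 times, against 13.4 to 15.2 times in the other 3. Each of these contrasts is between 1 library and another, so there is no test.

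The MACS2 lists, called by the authors on the 6 untreated 15-cycle libraries, placed the marks in the same clusters. MACS2 covered 72.0% of HOXA, 13.6% of HOXB, 46.8% of HOXC and 79.6% of HOXD with H3K27me3, all slightly above SEACR. None of the 5 H3K27ac lists had a MACS2 peak in HOXA or HOXD. The MACS2 shares of HOXB were 10.3% for ab4729, 8.77% for Diagenode at 1/50, 2.11% for ab177178, 1.43% for Diagenode at 1/100 and 0.0879% for Active Motif. Between 85.5% and 100% of the MACS2 length in HOXB lay inside SEACR peaks of the same H3K27ac library. The best HOXB peaks of ab4729 (chr17:46701911-46707382) and Diagenode at 1/50 (chr17:46703757-46706777) had MACS2 fold enrichments of 29.8 and 28.4, both in the region found in 22 lists. The ab4729 peak in HOXC at chr12:54411076-54412674 had the same fold enrichment of 29.8, and the single Active Motif peak in HOXB had 4.83.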

How the data were processed

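Peak lists of 30 CUT&Tag libraries (hg19) were used as deposited by the authors: 30 SEACR lists, whose total and maximum signal per peak are the authors' values, and 6 MACS2 lists, whose fold enrichment (a ratio) and −log10 q are deposited per peak. Per the submitters' processing notes, the tools included Bowtie2 2.2.9, bedtools 2.25.0 and SAMtools 1.3.1. The file headers, which here are peak names, name a q of 0.00001 for MACS2. It was not a limit that every listed peak passed: the best H3K27me3 peak in HOXB had a −log10 q of 4.35. No source used here gives the SEACR threshold. Peaks were called per library. Read depth is unknown, so values carry no counting interval.

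From these lists the covered length was computed in Python 3.11.15 (numpy 2.4.6), after merging overlapping peaks and clipping them to the windows, and the overlap code was tested on simulated intervals and against bedtools 2.31.1. Genome background used 607020 bins of 5 kb on the assembled chromosomes, called at 50% coverage. Contigs and mitochondrial peaks (0.449% to 5.82% of a SEACR list) were left out. Bins that reads cannot map to stay in the background. Regions overlap if they share 1 bp. Matched pairs were tested by exact two-sided sign-flip tests with Benjamini-Hochberg adjustment over 3 totals, and separately over the 9 single-window tests with a nonzero difference. Members, windows and lists were chosen with earlier results of these data known. All 38 members are covered as clusters; named regions were, per window, the longest H3K27me3 domain and H3K27me3-free stretch at 15 cycles, up to 5 H3K27ac regions in most untreated lists (ties by width), and regions of 3 or more lists seen only with or only without TSA. Other regions and bins were chosen after their values were seen. Alternatives were the upper 50% of each list by signal, lists of equal size, peaks merged within 1 kb, windows widened or narrowed by 10 kb, peak counts, MACS2, and leaving out each antibody or protocol.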

Additional observations from a re-analysis of the deposited data

Results flagged for a closer look

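The extraction difference in HOX H3K27ac, taken relative to each list's genome-wide covered share, had opposite signs at the 2 cycle numbers. At 11 cycles the column list was lower than the SDS list in 4 of 4 antibody pairs (mean log2 difference -0.64, from -0.96 to -0.44), and at 13 cycles it was higher in 4 of 4 (mean 0.42, from 0.08 to 0.92). The difference between the cycle numbers was 1.07 on the log2 scale and was not tested. The genome-wide share of the column list was higher than that of SDS in 3 of 4 pairs at 11 cycles and lower in 4 of 4 at 13 cycles, and the part this plays was not tested.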

How the results depend on the processing

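Over all windows, the H3K27me3 excess and the lower mean H3K27ac share with TSA kept their direction under each alternative run, though peak counts split the TSA pairs in HOXB. The former ranged from 12.4 points with lists of equal size to 32.7 with peaks merged within 1 kb. In HOXB alone it turned to -1.21 points with lists of equal size and to log2 -1.99 relative to the genome-wide share. Column minus SDS had no stable sign: it was 0.129 points in the upper 50% of each list by total signal and 0.105 without Diagenode, and in HOXB alone 0.0293 in the upper 50%; the cause was not tested. For 13 minus 11 cycles, HOXC alone turned to 0.0338 in the upper 50%. MACS2 in place of SEACR moved the covered share of all windows to 1.06% for ab177178, 0.0323% for Active Motif and 0.644% for Diagenode at 1/100. Counting any overlap in place of 50% gave 60 HOX bins in all 5 H3K27me3 lists, where 3.72% of genome bins passed. For H3K27ac it gave 22 HOX bins, where 5.12% of genome bins passed. Scaling to the genome-wide share, chosen after seeing the data, gave mean log2 differences of -0.48 for TSA, -0.11 for extraction and 0.51 for cycles (exact two-sided sign-flip p 0.375, 0.625 and 0.0703). The extraction mean joins opposite signs at 11 and 13 cycles. The cycle mean joins column pairs from 0.68 to 1.21 with SDS pairs from -0.24 to 0.44. With 4 TSA pairs and 5 protocols the tests could not pass 0.05.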
